A study of Mus musculus with 4 samples.

Results

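The MHC class I pathway was followed through 10 genes in mouse fibroblasts that lack the zinc transporter Zip13 or carry it. The genes are the heavy chains H2-K1, H2-Q4 and H2-T23, the light chain B2m, the peptide transporter genes Tap1 and Tap2, the loading factor Tapbp, the proteasome subunits Psmb8 and Psmb9, and the transactivator Nlrc5. They are 10 of 22180 genes measured, each taken as the brightest row that carried its symbol alone. The set was chosen by measured values of these same arrays, that is, by the comparison of Zip13KO with WT. The differences of the 10 genes are therefore given as a description, without a test, and support nothing by themselves.

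Total RNA came from fibroblasts of Zip13KO mice (2 arrays) and of WT mice (2 arrays), each group with biological replicates 1 and 2. Zip13 is the product of Slc39a13, and the submitters write the knockout as Zip13-/-. Both groups are fibroblast cultures or isolates described by genotype alone. The sources used here do not give the strain, age, sex, body site or passage of the cells, or the deleted part of the gene. Nothing ties the replicates to separate animals or cultures, so p-values reflect only how far these arrays differ, and part of that may be technical. Each RNA was hybridised to an Affymetrix Mouse Gene 2.0 ST array, on which many short probes along a transcript are combined into a single brightness (intensity), given here as log2. An intensity ranks the same gene across arrays. Between genes it serves only to set a row against the median row of an array and to sum marker lists. Such sums follow the brightest rows.

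MHC class I molecules show peptides from inside the cell to CD8 T cells. The proteasome cuts proteins into peptides, the TAP transporter carries the peptides into the endoplasmic reticulum, and tapasin helps to load them onto a heavy chain paired with beta-2-microglobulin. Interferons raise most genes of this pathway, in part through the transactivator NLRC5, and fibroblasts, like most nucleated cells, carry class I at a basal level.

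The 4 arrays had a median intensity between 94.5 and 96.1, a likeness that the submitters' normalization (RMA) brings about. Pairs of arrays correlated over all rows at 0.994 (Pearson) inside each genotype and at 0.983 to 0.985 across genotypes. The Slc39a13 row had log2 intensities of 8.89 and 8.98 in Zip13KO, against 8.94 and 8.85 in WT, and the groups overlapped (difference 0.04, SE 0.08, limma adjusted p = 0.820). Where its probes lie relative to the deletion is not known, so this row does not check the labels, and directions follow the labels as given. Of 12 fibroblast markers, 10 were brighter than the median row on 2 or more arrays, and Lum and Fap lay below it on every array. The summed intensity of the fibroblast markers was 16092 and 16840 in Zip13KO, against 21709 and 20690 in WT. In limma 1 of the 12 rose, Pdgfra by 1.04, and 6 fell, among them Pdgfrb (-0.92), Col1a1 (-0.89) and Fn1 (-0.67). Of 17 leukocyte markers, 5 were brighter than the median row on 2 or more arrays, and their summed intensity was 1578 and 1524 in Zip13KO, against 1592 and 1503 in WT. Ptprc, which encodes CD45 of all leukocytes, was below the median on all 4 arrays, at 6.14 and 6.13 in Zip13KO, against 6.09 and 6.03 in WT. Among leukocyte markers Cd68 rose by 0.40 and Csf1r fell by 0.26. Cd68 differed by 0.13 without WT replicate 2. Csf1r differed by -0.22 without WT replicate 1 and by -0.19 without Zip13KO replicate 2. With all rows of the table in the fit, neither passed (limma adjusted p = 0.310 for Cd68 and 0.184 for Csf1r). Cd68 also did not pass with a robust variance in limma (adjusted p = 0.159). None of 7 endothelial and 6 epithelial markers passed in limma. At an unadjusted p under 0.05, 1 endothelial marker was higher and 1 epithelial marker was lower, and the smallest p in each list belonged to Cdh5 (0.20, adjusted p = 0.124) and Krt14 (-0.26, adjusted p = 0.0592). Krt14 passed without Zip13KO replicate 2 (-0.40, adjusted p = 0.00185). The part of these marker differences in the values below was not tested, and in bulk RNA fewer cells of a type and less RNA per cell cannot be told apart.

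The heavy chains carried the widest differences of the set, and H2-K1 stood apart from the other members. H2-K1 encodes a classical class I heavy chain that presents peptides on the cell surface. Its log2 intensity was 9.21 and 9.20 in Zip13KO, against 7.18 and 7.10 in WT. Both Zip13KO arrays lay about 2 log2 units above both WT arrays, and the replicates of a group were at most 0.08 apart. The mean difference was 2.06 (SE 0.08), or 4.18-fold, and it lay above that of 99.9% of all genes measured. H2-Q4, of the Q region, encodes a class I chain of the non-classical family. It had 7.78 and 7.67 in Zip13KO, against 6.90 and 7.03 in WT, without overlap, a difference of 0.76 (SE 0.08, 1.69-fold). A further, dimmer row of H2-Q4 had 6.50 and 6.33 in Zip13KO, against 6.40 and 6.33 in WT. That row differed by 0.05, and the mean of both rows by 0.41, so the size for this gene depends on the row. H2-T23 encodes Qa-1, which presents signal peptides of other class I chains to receptors of NK cells. It had 6.87 and 6.85 in Zip13KO, against 6.35 and 6.34 in WT, a difference of 0.52 (SE 0.08, 1.43-fold). Its replicates were nearly equal in each group, and it was above the array median on the Zip13KO arrays alone. Class I heavy chain genes are close copies of each other, so signal on a row may come in part from a relative.

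**Figure D1:**
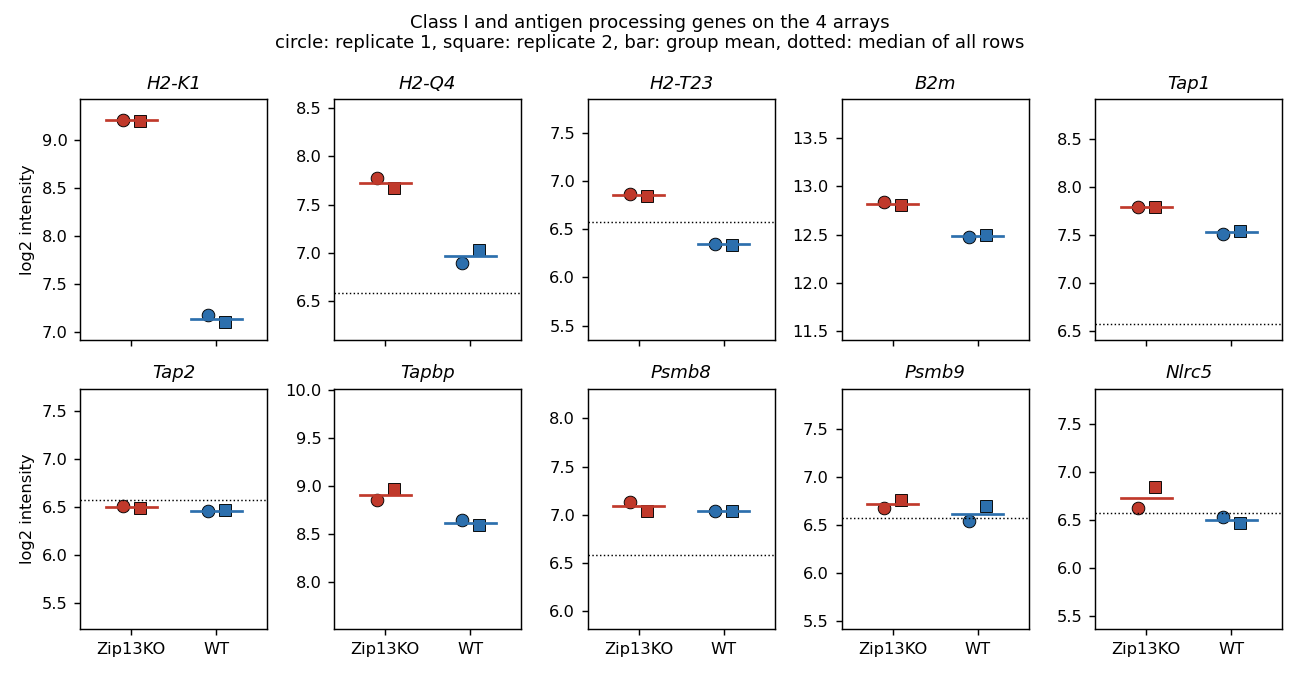
Log2 intensity of the 10 genes on the 2 Zip13KO arrays (red, left) and the 2 WT arrays (blue, right), in panels that all span the same range, with bars for group means and a dotted line for the median of all rows. H2-K1 shows the widest gap, 2.06 log2 units, and the groups overlap for Psmb8 and Psmb9.

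B2m encodes beta-2-microglobulin, the light chain that every class I heavy chain needs to reach the surface. It had 12.83 and 12.81 in Zip13KO, against 12.48 and 12.50 in WT. The groups did not overlap, and the replicates of each were at most 0.02 apart. The difference was 0.33 (SE 0.05, 1.26-fold), and it was 0.26 after a further quantile normalization. B2m lies on chromosome 2, as Slc39a13 does, with 277 measured genes between them.

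The promoters of the heavy chains and of B2m are shown because the differences of these genes were the widest in the set and because class I promoters are known to hold sites for NF-kB, for interferon regulatory factors and for the enhanceosome that NLRC5 joins. RefSeq promoters of build GRCm38.p6 (250 bases before to 50 after the start) matched 8 of the 10 genes, all but Tap2 and Nlrc5. Capitals mark a match, on either strand, to a searched pattern: the interferon-stimulated response element (GAAA and GAAA with 2 bases between), the Y box CCAAT, the NF-kB pattern (GGGA and CC with 4 bases between), the cyclic AMP response element TGACGTCA, and the shorter interferon factor pattern GAANNGAAA. The last of these was added after the promoters had been seen. H2-K1 has 2 RefSeq starts that lie 14 bases apart, and the promoter of the upstream entry is printed. The regions are chr17:34000298-34000597 (minus strand) for H2-K1, chr17:35379367-35379666 (plus) for H2-Q4, chr17:36032652-36032951 (minus) for H2-T23 and chr2:122147437-122147736 (plus) for B2m.
H2-K1: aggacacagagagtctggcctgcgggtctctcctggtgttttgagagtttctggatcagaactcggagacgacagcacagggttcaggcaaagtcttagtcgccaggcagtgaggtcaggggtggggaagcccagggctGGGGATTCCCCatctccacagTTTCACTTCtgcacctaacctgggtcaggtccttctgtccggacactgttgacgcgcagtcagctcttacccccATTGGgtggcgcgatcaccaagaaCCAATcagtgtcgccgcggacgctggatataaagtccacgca
H2-Q4: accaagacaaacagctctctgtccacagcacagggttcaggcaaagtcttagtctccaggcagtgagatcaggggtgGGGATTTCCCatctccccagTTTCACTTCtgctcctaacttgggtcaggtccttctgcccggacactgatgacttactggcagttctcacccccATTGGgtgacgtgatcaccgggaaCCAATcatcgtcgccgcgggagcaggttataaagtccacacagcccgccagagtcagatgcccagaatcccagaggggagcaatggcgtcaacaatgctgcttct
H2-T23: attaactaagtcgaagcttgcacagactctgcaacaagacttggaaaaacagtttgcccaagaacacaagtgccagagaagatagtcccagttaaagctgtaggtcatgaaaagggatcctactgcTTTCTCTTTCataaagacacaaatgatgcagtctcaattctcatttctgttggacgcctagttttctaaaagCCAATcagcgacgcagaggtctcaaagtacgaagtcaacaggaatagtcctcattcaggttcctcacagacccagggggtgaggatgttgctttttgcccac
B2m: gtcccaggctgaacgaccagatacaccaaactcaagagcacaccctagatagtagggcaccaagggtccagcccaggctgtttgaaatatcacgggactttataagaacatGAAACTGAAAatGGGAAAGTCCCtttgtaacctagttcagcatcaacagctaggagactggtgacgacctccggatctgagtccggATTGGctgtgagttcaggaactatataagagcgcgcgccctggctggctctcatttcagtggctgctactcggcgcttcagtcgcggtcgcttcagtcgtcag

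The H2-K1 and H2-Q4 promoters were close copies, identical in 187 of 229 aligned positions (81.7%) of their best local alignment, against 58.3% of 96 positions between H2-K1 and H2-T23. Both held the NF-kB pattern, then the shorter interferon factor pattern 20 bases on, then an inverted Y box another 74 bases on and a forward Y box 24 bases after that, counted between the first bases of the matches. The NF-kB pattern matched on both strands in each, over the same letters in H2-Q4 and shifted by 1 base in H2-K1, and the spacing is counted from the forward match. Counted from the RefSeq start, B2m held the interferon-stimulated response element at -139 to -130, with the NF-kB pattern beginning at -127 and a Y box at -53. H2-T23 held that response element at -124 to -115 and a Y box at -52. Over 32851 RefSeq promoters, 3.44% held the interferon-stimulated response element, 7.52% the shorter pattern, 20.7% the NF-kB pattern, 37.4% a Y box and 1.79% the cyclic AMP response element. Among the 8 genes with a promoter, the Y box was found in 7, the NF-kB pattern in 3, the response element in 2, the shorter pattern in 2 and the cyclic AMP element in 0. The Y boxes of Tap1 and Psmb9 are the same site, counted for both genes, where their promoter windows overlap. All matches describe letters only, and no binding was measured.

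The peptide transporter and its partner showed smaller differences. Tap1 and Tap2 encode the paired chains of the TAP transporter, and Tapbp encodes tapasin, which bridges TAP to the empty class I molecule. Tap1 had 7.79 and 7.80 in Zip13KO, against 7.51 and 7.55 in WT, without overlap and with replicates at most 0.03 apart. Its difference was 0.26 (SE 0.08). Tap2 had 6.52 and 6.49 in Zip13KO, against 6.46 and 6.47 in WT. Its difference of 0.04 (SE 0.08) was smaller than its error, and Tap2 was the only one of the 10 below the array median on all 4 arrays. Tapbp had 8.85 and 8.97 in Zip13KO, against 8.64 and 8.59 in WT, a difference of 0.29 (SE 0.08, 1.23-fold). Its dimmer row had 7.25 and 7.25 in Zip13KO, against 7.21 and 7.26 in WT, and overlapped between groups (difference 0.02), and the mean of the rows differed by 0.16.

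Psmb8 and Psmb9 encode catalytic subunits that take the place of the constitutive Psmb5 and Psmb6 when the immunoproteasome is built. Psmb8 had 7.13 and 7.03 in Zip13KO, against 7.04 and 7.03 in WT, a difference of 0.05 (SE 0.08). Psmb9 had 6.68 and 6.76 in Zip13KO, against 6.54 and 6.70 in WT, a difference of 0.10 (SE 0.08). Both genes overlapped between the groups. Psmb8 was at -0.00 without Zip13KO replicate 1. Psmb5 and Psmb6, outside the rule for naming genes and given as their counterparts, differed by 0.15 and 0.10 and did not pass the test (limma adjusted p = 0.171 and 0.431).

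Psmb9 and Tap1 are neighbours that point away from each other, with RefSeq starts 226 bases apart, so that their promoter windows share 275 bases. Tap1 differed between groups without overlap whereas Psmb9 did not, and whether the sizes of the pair differ was not tested, since both were chosen on this contrast. The window is shown on the Tap1 strand, chr17:34187306-34187605 (plus), where the capitals mark the Y box, the only searched pattern in it.
Tap1: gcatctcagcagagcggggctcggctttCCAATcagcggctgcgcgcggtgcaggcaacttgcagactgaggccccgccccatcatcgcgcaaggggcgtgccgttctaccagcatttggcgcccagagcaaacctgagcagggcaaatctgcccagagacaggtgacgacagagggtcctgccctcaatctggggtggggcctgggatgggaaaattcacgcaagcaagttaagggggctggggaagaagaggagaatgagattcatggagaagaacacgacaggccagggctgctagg

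Nlrc5 encodes the transactivator of class I genes. It had 6.62 and 6.85 in Zip13KO, against 6.53 and 6.47 in WT. The groups did not overlap, but the Zip13KO replicates were 0.22 apart, the widest replicate gap of any member. The difference was 0.23 (SE 0.09, 1.17-fold), with 0.12 without Zip13KO replicate 2 and 0.34 without Zip13KO replicate 1. Nlrc5 was above the array median on the Zip13KO arrays alone.

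Among themselves the members formed a graded series of differences from 0.04 (Tap2) to 2.06 (H2-K1), with a median of 0.28, beside a median of -0.00 over all genes. All 10 had the higher mean in Zip13KO, and both Zip13KO arrays lay above both WT arrays for 8 of them, where 24.1% of all genes did so. The limma threshold was an adjusted p under 0.05 over all genes. Over all genes 7.0% were past it higher, and 17.1% were past it in either direction. No calls are given for the members, because this contrast chose the set. For the same reason nothing is read from the counts of members above. In order of size H2-K1 came first, 1.30 above H2-Q4, and H2-T23 came next. The neighbours in the order from B2m through Tapbp and Tap1 to Nlrc5 lay within about 1 SE of each other, as did Psmb9, Psmb8 and Tap2. A filter on low values (brighter than the median row of the array on 2 or more arrays) kept 9 of the 10, and H2-T23 and Nlrc5 passed it through the Zip13KO arrays alone. With 2 arrays against 2, the smallest two-sided p that an exact permutation test of a single gene can reach is 0.333, and calls were therefore taken from the moderated fit across genes.

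The spread between replicates was small. A set chosen for a clear contrast can favour genes with close replicates, so nothing is read from this. The median absolute difference between replicates was 0.05 over the members in Zip13KO and 0.04 in WT, beside 0.08 and 0.07 over all genes. Replicate 1 was the higher in 6 of 10 members in Zip13KO and in 5 of 10 in WT, where 45.3% of all genes in Zip13KO and 60.6% in WT had the higher value in replicate 1. The gap passed the SD over all genes (0.12 in each group) for Nlrc5 in Zip13KO and for H2-Q4 and Psmb9 in WT.

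**Figure D2:**
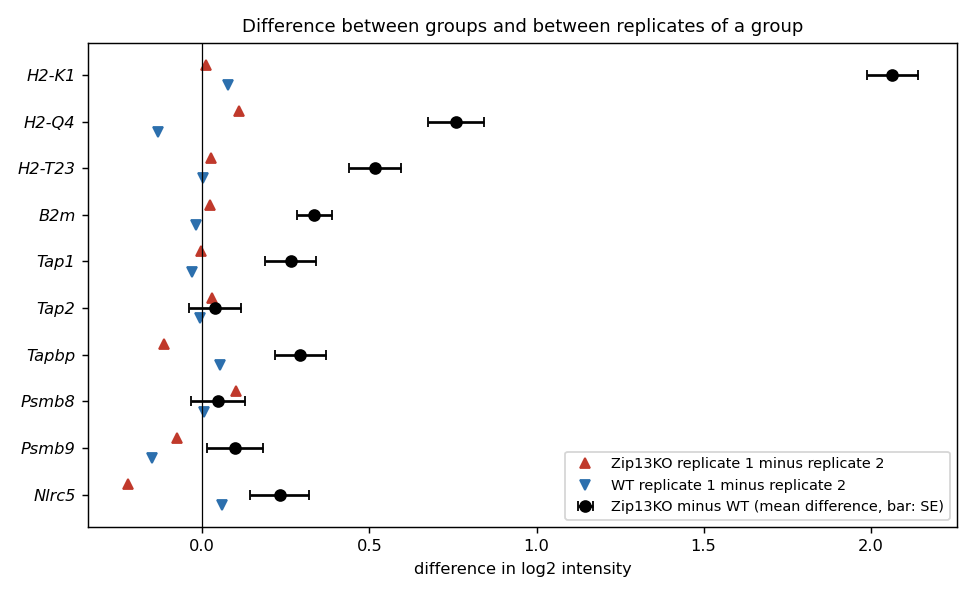
Difference in log2 intensity for each of the 10 genes, as Zip13KO minus WT (black, bar: SE of the fit) and as replicate 1 minus replicate 2 within Zip13KO (red) and within WT (blue). The group difference exceeds both replicate differences for the 3 heavy chains, B2m, Tap1, Tapbp and, narrowly, Tap2 and Nlrc5, while Psmb8 and Psmb9 do not clear theirs.

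Other genes of antigen presentation, listed by role with earlier results of these data known, changed in both directions. Of 130 genes listed, 107 had a row of their own. Of these, 13 (12.1%) rose and 13 (12.1%) fell, and the median difference was -0.00. Of all 22180 genes, 1552 (7.0%) rose and 2234 fell. The number that rose dropped to 7 without WT replicate 2, and to 4 when all rows of the table entered the fit, where 8 fell.

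None of the 19 other class I heavy chains with a row of their own passed in limma. They are what remained after the members had been chosen on this contrast, so nothing is read from the lack of calls. At an unadjusted p under 0.05, 2 were higher and 2 lower, and the differences ran from -0.23 to 0.23 with a median of 0.04. The smallest p was that of H2-M9, at 5.74 and 5.85 in Zip13KO, against 6.01 and 6.03 in WT (-0.23, adjusted p = 0.0571). H2-M3, named after its values were seen, presents formylated peptides and had 7.99 and 7.72 in Zip13KO, against 7.60 and 7.66 in WT (0.23, adjusted p = 0.107). Without Zip13KO replicate 2, H2-M3 rose by 0.36 (adjusted p = 0.00644) and H2-M9 fell by 0.28 (0.0286). H2-M9 also passed after a further quantile normalization (-0.24, 0.0422). Of these 19, 7 were brighter than the median row on 2 or more arrays. Another 10 listed heavy chains, H2-D1 among them, were not analysed here, 9 because their rows carried the symbols of several genes.

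Of 12 class I-like molecules measured, 3 fell (25%), 0 rose and 9 did not pass in limma. At an unadjusted p under 0.05, 1 was higher and 4 lower. Over all 22180 genes 2234 fell, a smaller share. Whether this list differs from all genes was not tested. Ulbp1, a stress ligand of the NK cell receptor NKG2D, had 8.17 and 7.99 in Zip13KO, against 9.20 and 9.21 in WT, and fell by 1.13 (SE 0.08, adjusted p = 8.45e-09). Mr1, which presents vitamin metabolites to MAIT cells, had 7.89 and 7.81 in Zip13KO, against 8.52 and 8.61 in WT, and fell by 0.72 (adjusted p = 2.21e-06). Fcgrt, the heavy chain of the neonatal Fc receptor, fell by 0.41 (adjusted p = 5.35e-04). The products of Mr1 and Fcgrt pair with beta-2-microglobulin, and that of Ulbp1 does not.

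**Figure D3:**
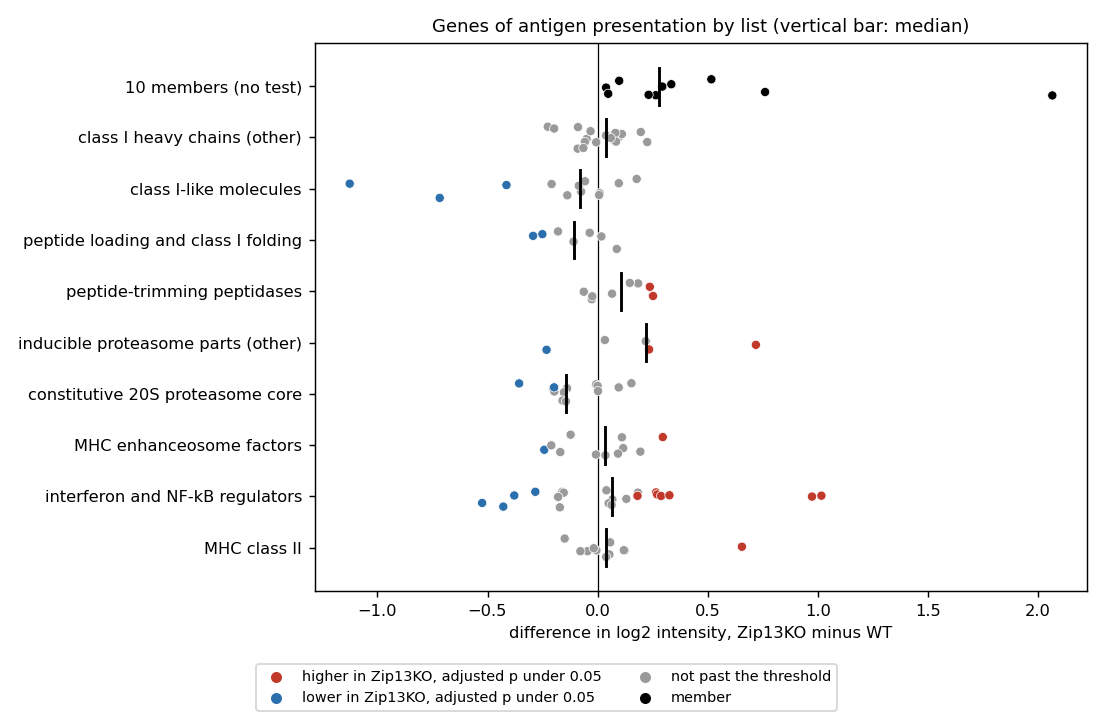
Difference in log2 intensity (Zip13KO minus WT) of each gene in 9 lists of antigen presentation and of the 10 members (top, no test), with a vertical bar at each median and colour for genes past limma's threshold. Heavy chains outside the set, which remained after the members had been chosen on this contrast, lie within -0.23 and 0.23. On the lower side 3 class I-like genes are past the threshold.

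Outside the 10 members, the listed loading and folding factors of the endoplasmic reticulum were lower or not past the threshold. The loading factor Tapbp, a member and so not in this list, had the higher mean in Zip13KO (0.29). Of the 7 listed, 2 fell (28.6%) and 0 rose in limma, with 0 higher and 3 lower at an unadjusted p under 0.05. The mean was higher in Zip13KO for 2 of the 7. Over all 22180 genes 2234 fell. The chaperone calreticulin (Calr) fell by 0.29 (SE 0.05, adjusted p = 7.46e-04), with 12.10 and 12.10 in Zip13KO, against 12.41 and 12.38 in WT. Bcap31, an export factor that class I molecules use, fell by 0.25 (adjusted p = 0.0160), and it did not pass without WT replicate 1 (-0.19, 0.226) or over all rows (0.121). Peptidases that trim peptides gave 2 higher (25%, beside 7.0% of all genes) and 0 lower of 8. At an unadjusted p under 0.05 the counts were 3 and 0. Blmh rose by 0.25 (adjusted p = 0.0179) and Thop1, which destroys peptides in the cytosol, by 0.24 (adjusted p = 0.0278). Blmh did not pass without Zip13KO replicate 1 (0.23, 0.0653) or WT replicate 1 (0.22, 0.145), nor Thop1 without Zip13KO replicate 2 (0.20, 0.105) or WT replicate 2 (0.18, 0.259), and neither passed over all rows (0.0943 and 0.140).

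Of 5 further proteasome parts linked to antigen processing, 2 rose (40%) and 1 fell (20%). Over all 22180 genes 1552 (7.0%) rose and 2234 fell. Psme1, a subunit of the PA28 activator that interferon raises, had 10.07 and 9.98 in Zip13KO, against 9.29 and 9.33 in WT, and rose by 0.72 (SE 0.07, adjusted p = 5.66e-07). Psme3, the nuclear PA28 subunit, rose by 0.23 (adjusted p = 0.0153) and the assembly factor Pomp fell by 0.23 (adjusted p = 0.0218). Psmb10, the remaining inducible catalytic subunit, given here as the partner of Psmb8 and Psmb9 outside the naming rule, had 8.23 and 8.08 in Zip13KO, against 7.98 and 7.89 in WT (0.22, adjusted p = 0.0811). It passed without Zip13KO replicate 2 (0.30, 0.0277) and after a further quantile normalization (0.23, 0.0482). With either WT array left out, Psme3 (adjusted p = 0.0907 without replicate 1 and 0.0809 without replicate 2) and Pomp (highest 0.101) fell short of the threshold, as they did over all rows (0.0841 and 0.118), and Pomp did not pass without Zip13KO replicate 2 (-0.18, 0.115). In the constitutive core, 2 of 13 fell (15.4%) and 0 rose in limma, with 1 higher and 6 lower at an unadjusted p under 0.05. Whether the shares of these proteasome lists differ from those of all genes was not tested. Psmb2 fell by 0.36 (adjusted p = 8.44e-04) and Psmb7 by 0.20 (adjusted p = 0.0416). Psmb7 did not pass without Zip13KO replicate 1 (-0.18, 0.130), WT replicate 1 (-0.19, 0.212) or WT replicate 2 (-0.21, 0.144), over all rows (0.139) or without a variance trend (0.0918). A filter on low values raised the number lower in the core to 4.

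Among the regulators of class I transcription, some genes passed the threshold in each direction. The first list holds 11 genes of the MHC enhanceosome. They are factors that bind the X and Y boxes and coactivators or chromatin enzymes that work with them. Of the 11, 1 rose and 1 fell (9.09% each). These shares lay near those of all 22180 genes, of which 1552 (7.0%) rose and 2234 fell. Nfya rose by 0.30 (adjusted p = 0.00478) and Nfyc fell by 0.24 (adjusted p = 0.0228), both subunits of the factor that binds CCAAT. Neither passed without WT replicate 2 (0.26, 0.0570 for Nfya, and -0.19, 0.246 for Nfyc) or over all rows (0.0628 and 0.121). Of 21 interferon and NF-kB regulators, 7 rose and 4 fell. Usp18, which restrains the interferon receptor and is itself induced by interferon, had 7.61 and 7.55 in Zip13KO, against 6.59 and 6.54 in WT, and rose by 1.02 (SE 0.08, adjusted p = 3.47e-08). Usp18 was above the array median on the Zip13KO arrays alone. Irf9, the DNA-binding part of the complex that acts below type I interferon, had 8.55 and 8.49 in Zip13KO, against 7.54 and 7.55 in WT, and rose by 0.97 (adjusted p = 3.43e-08). The receptor chain Ifnar2 and the kinase Jak1, which work above that complex, fell by 0.52 (adjusted p = 2.84e-05) and by 0.43 (adjusted p = 3.69e-04). The number that rose was 4 without WT replicate 2, 4 without Zip13KO replicate 2 and 2 over all rows. Of 11 class II genes measured, 1 rose (9.09%, near the 7.0% of all genes) and 0 fell in limma. The counts were the same at an unadjusted p under 0.05. The gene was Ifi30, a lysosomal thiol reductase, with 9.77 and 9.84 in Zip13KO, against 9.20 and 9.11 in WT (0.66, adjusted p = 2.43e-06).

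Of the 10 genes, 8 lie in the MHC region of chromosome 17. Between the outermost of them, Tapbp and H2-T23, 108 other genes outside the lists were measured. Of these 1 rose (0.926%) and 11 fell, with a median difference of -0.03. Over all 22180 genes 1552 (7.0%) rose and 2234 fell. The share that fell in the span was thus near that of all genes, and the share that rose was smaller. The 1 that rose was Hspa1a (0.39), which was below the array median on all 4 arrays and lies next to Hspa1b, which fell most of these neighbours, with 7.64 and 8.17 in Zip13KO, against 9.11 and 8.99 in WT (-1.15, adjusted p = 1.22e-06). Both encode the inducible Hsp70 and are near-identical, so their separate values are uncertain. The immediate early gene Ier3 (-0.87) and Tcf19 (-0.72) also fell. The number that rose was 0 without WT replicate 2, 2 without WT replicate 1, 3 after a further quantile normalization and 0 over all rows, where 7 fell. Of the 10 nearest genes on each side of each member, 114 in all after removing repeats, 7 rose (6.14%) and 10 fell (8.77%), or 3 and 6 over all rows. Next to H2-K1, 1 of 20 passed the test, lower in Zip13KO, with differences between -0.38 and 0.10. Around B2m 2 of 20 passed, both higher, with differences between -0.19 and 0.38. Around Nlrc5, on chromosome 8, 2 of 20 rose and 6 fell, among them the chemokine gene Ccl17 (-0.70, adjusted p = 1.53e-05).

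**Figure D4:**
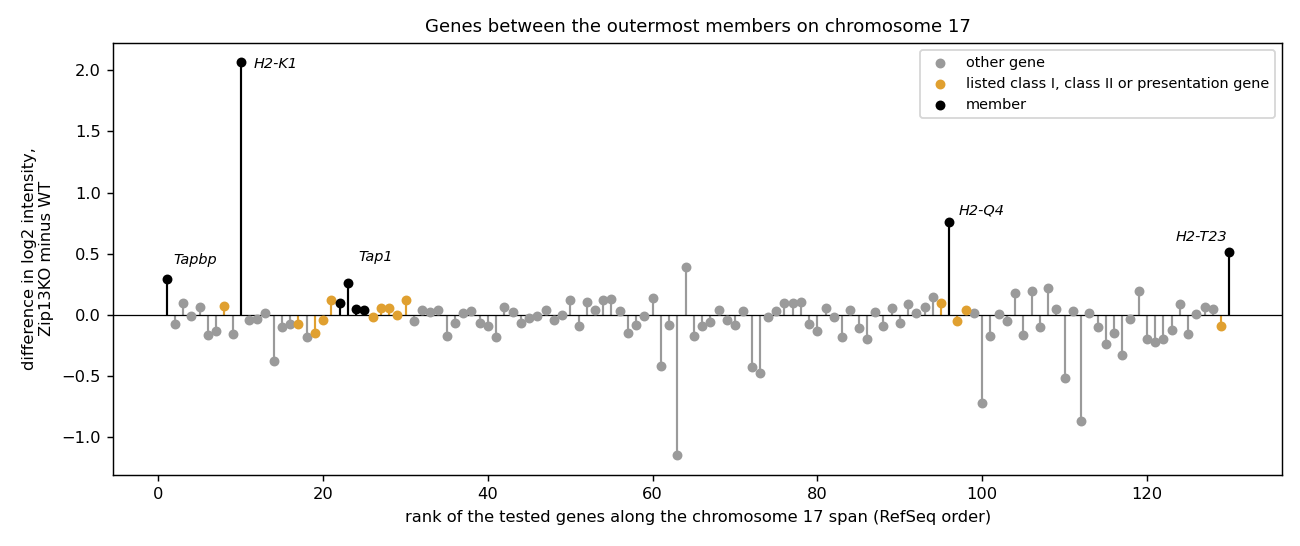
Difference in log2 intensity (Zip13KO minus WT) of the 130 measured genes from Tapbp to H2-T23 on chromosome 17, by their rank in RefSeq order, with members in black, listed presentation genes in orange and other genes in grey. H2-K1 (2.06), H2-Q4 (0.76) and H2-T23 (0.52) stand above the genes beside them, while Hspa1b (-1.15) is the lowest. The members were chosen on this contrast and the genes beside them were not.

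The genes whose pattern over the 4 arrays was most like the mean pattern of the members, by the Euclidean distance between centred log2 profiles, were Vwa8, Fstl3, Slc46a1, Rnpep and Niban1, at distances of 0.02 to 0.03. Vwa8, the nearest, had 8.16 and 8.15 in Zip13KO, against 7.67 and 7.70 in WT. The differences of the 5 genes ran from 0.45 to 0.48. The mean pattern is weighted by H2-K1, and over 4 arrays such likeness says little more than that the difference is of similar size.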

How the data were processed

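Affymetrix Mouse Gene 2.0 ST arrays were read for 2 Zip13KO and 2 WT RNA samples. Each deposited table holds linear intensity per row. Per the submitters' processing notes the software was Affymetrix Expression Console and the method RMA, with no version given. RMA forces the arrays to similar distributions and would hide a shift of most genes.

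Log2 of the intensity was taken without a pseudocount. Of 41345 rows, 23521 carried 1 gene symbol in the platform annotation, 1814 several and 16010 no symbol here. The brightest row per gene left 22180 genes. RefSeq (GRCm38.p6) gave gene order, promoters and gene IDs, and no coordinates of the array. Genes were fitted with limma 3.58.1 in R 4.3.3 (lmFit, eBayes with trend, two-sided), with Benjamini-Hochberg adjustment over all genes and a threshold of 0.05. Differences are Zip13KO minus WT on the log2 scale, and SE is that of the moderated fit (2 residual and 15.1 prior degrees of freedom). The fit was checked on simulated data. Plots used matplotlib 3.10.9.

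The members and the lists were chosen with earlier results of these data known. Genes named were the members, Slc39a13, up to 4 genes per list past the threshold with the largest difference (otherwise the smallest p), up to 4 neighbours and the 5 genes most alike. Predicted, RIKEN and small RNA names were only counted among neighbours and alike genes. The exceptions were Psmb5, Psmb6, Psmb10, H2-M3, Hspa1a, Ptprc, Lum and Fap, named after their values were seen. As alternatives the fit took a low-value filter, a further quantile normalization, median centring, other variance models, the replicate number as a block, averaged rows per gene, all rows, or 1 array fewer. Of the promoter patterns searched, 1 is not reported here. The number of arrays limits the precision.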

Additional observations from a re-analysis of the deposited data

How the results depend on the processing

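The median difference of the 10 genes was 0.28 and lay between 0.25 and 0.33 when each array was left out. Among single members, Nlrc5 ranged from 0.12 to 0.34 with arrays left out, B2m was 0.26 after a further quantile normalization, and H2-Q4 (0.41) and Tapbp (0.16) were lower when their rows were averaged. A block leaves the differences as they are by construction. Fitting and adjusting over every row of the table gave 669 higher and 1137 lower among all genes, against 1552 and 2234, 4 higher and 8 lower among the 107 other presentation genes, 3 and 6 among the 114 nearest neighbours, and 0 and 7 among the 108 other genes of the chromosome 17 span. That setting tests 41345 rows. The span had 3 higher after a further quantile normalization. With arrays left out in turn, the other presentation genes had 7 to 12 higher and 10 to 17 lower, the nearest neighbours 5 to 6 and 7 to 11, the span 0 to 2 and 8 to 14, and all genes 1125 to 1545 and 1590 to 2346. A lone remaining array was taken to vary as the arrays of the other genotype do.

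Samples of the same replicate number share only a number in the labels, and their deviations from the group means correlated at -0.16 over genes. With the replicate block, 8 other presentation genes were higher and 10 lower, Blmh, Thop1, Psme3, Pomp, Psmb7 and Nfyc were no longer past the threshold, and Krt14 was. With crossed numbers, added after seeing the data, the counts were 17 and 22, those of the nearest neighbours 12 and 17, and those of the span 4 and 17. Among named genes, 36 of 518 values under alternatives lost a call (10 genes) and 12 gained it (4 genes), with 0 reversed. The brightness of rows near the array median limits what can be seen of dim genes, as no detection values were used here.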
